A study of Mus musculus with 33 samples.

Results

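The 44 genes described here are a list of interferon response genes, taken by symbol and followed in every deposited library of CA1, the hippocampal subfield whose pyramidal neurons carry the main output to cortex. All 44 had a row in the count tables of the aged mice, out of 38355 genes listed there, and 43 had a locus in the FPKM tables of the young mice, out of 40678, with Irf8 the one without and Ifi27 found there under its synonym Ifi27l1. The aged experiment held 6 APP/PS1-21 mice given JQ1 (APP JQ1), 6 APP/PS1-21 mice given vehicle (APP vehicle) and 4 wild-type mice given vehicle (WT vehicle) with counts, all 8 to 10 months old, injected intraperitoneally for 10 days with 50 mg/kg JQ1 or with 10% DMSO. The young experiment held 8 mice given 50 mg/kg JQ1 and 8 given 10% DMSO for 13 days, all of the C57B/6JRj strain and 3 months old. One further WT vehicle sample, replicate 2, was not analysed here. The APP/PS1-21 line carries mutant human APP under the Thy1 promoter, which is active in neurons, on a C57B/6 background. The strain label of the WT vehicle samples names the APP line, and they were taken as wild type from their titles. JQ1 competes with acetylated histones for the bromodomains of the BET proteins. Animals of both experiments were killed a day after a memory test, and the young and aged experiments differ in age, sex, days of injection and unit, so those factors cannot be told apart and the experiments were not tested against each other.

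Type I interferons are secreted proteins that bind the receptor pair Ifnar1 and Ifnar2 and, through the kinases Jak1 and Tyk2, activate STAT proteins, among them Stat2, which acts with Irf9 in the transcription factor complex ISGF3. This complex binds interferon-stimulated response elements in the promoters of many genes whose products sense viral nucleic acid, block translation, degrade RNA or trap virions. In brain the response is carried mostly by microglia, astrocytes and endothelium, and a subset of microglia with high interferon-induced transcripts is known from mouse models of amyloid deposition. Because the libraries were made from whole tissue, fewer cells of a type and less RNA per cell cannot be told apart.

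One library went against its label. The library labelled APP JQ1 replicate 4 held Thy1 at 820 CPM (read counts scaled to the size of each library, with TMM factors), below the WT vehicle range of 841 to 1070 and far from the 1754 median of its group. App stood at 1781 CPM in it, against 1853 to 1992 in WT vehicle and 2253 to 2716 in APP vehicle. It was kept in the main fits under its label, and counts of calls, and each member whose call between APP vehicle and WT vehicle changed, are given with and without it. WT vehicle replicate 4 stood apart for another reason, since choroid plexus markers summed to 3147 CPM there and to at most 141.7 CPM in any APP library. Reads on genes numbered 14605459 to 25339482 in each aged library, so that 3 reads, the limit that a count of 0 allows, stand for 0.118 to 0.205 CPM, and intervals from counts cover counting error only. The depth of the young libraries is unknown. The CA1 marker Wfs1 was at 159.7 to 343.6 CPM and Mpped1 at 339.0 to 452.8 CPM over the aged libraries.

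Some of the promoters share a sequence motif. Promoter windows of 300 bases, from 250 bases before to 50 after the annotated start, were available from RefSeq (GRCm38.p6) for 33 of the 44 members, and they were searched on both strands for the repeated core of the interferon-stimulated response element, written as GAAA, any 2 bases and GAAA, with overlapping matches counted. A match stood in 15 of the 33 members (45.5%), against 1079 of 27025 genes (3.99%) with a window in the same table. Among the 15 members called between APP vehicle and WT vehicle mice below, 6 of the 10 with a window held one, and among the other 29 members 9 of the 23 with a window did. Isg15 held the longest run, with 3 overlapping matches from 78 to 57 bases before its start. No match says only that these letters are not in this window. The 6 stretches below belong to the members with a match that had the smallest adjusted p in any comparison. Ifih1 is among them through APP JQ1 against WT vehicle mice. Matches are in capitals, and TTTC, any 2 bases and TTTC is the same motif read from the other strand. All stretches read in the direction of the gene. For Ifit1, Ifit3, Bst2 and Trim30a they are the 160 bases before the start, and for Ifih1 and Ifitm3, whose matches lie after it, a site of 30 bases.
Ifit1, chr19:34640729-34640888, plus strand: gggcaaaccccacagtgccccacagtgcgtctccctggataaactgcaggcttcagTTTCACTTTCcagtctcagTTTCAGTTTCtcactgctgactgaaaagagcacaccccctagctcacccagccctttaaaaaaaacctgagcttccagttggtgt
Ifit3, chr19:34583369-34583528, plus strand: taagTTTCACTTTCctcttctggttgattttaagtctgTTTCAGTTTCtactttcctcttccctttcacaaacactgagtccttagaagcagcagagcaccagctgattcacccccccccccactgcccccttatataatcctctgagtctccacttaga
Bst2, chr8:71537473-71537632, minus strand: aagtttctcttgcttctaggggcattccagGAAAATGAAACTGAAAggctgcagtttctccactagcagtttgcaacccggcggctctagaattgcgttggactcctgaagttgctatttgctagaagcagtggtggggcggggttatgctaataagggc
Trim30a, chr7:104465194-104465353, minus strand: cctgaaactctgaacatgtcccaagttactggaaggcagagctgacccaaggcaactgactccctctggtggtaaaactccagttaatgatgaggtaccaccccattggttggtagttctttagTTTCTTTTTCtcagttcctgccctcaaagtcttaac
Ifih1, chr2:62646206-62646235, minus strand: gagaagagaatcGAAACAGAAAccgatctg
Ifitm3, chr7:141010714-141010743, minus strand: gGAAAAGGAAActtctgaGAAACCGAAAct

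In aged mice 15 of the 44 interferon response genes were higher with the APP transgenes and none was lower. Between APP vehicle and WT vehicle mice all 44 members had a positive log2 fold change, with a median of 1.22. Over all 16962 genes tested 51.6% were positive and the median was 0.01. Of the 44, 15 passed the threshold (edgeR's quasi-likelihood test, Benjamini-Hochberg adjusted p under 0.05 over all genes tested), and all 15 were higher, while 2.49% of all genes tested were called higher. In 21 members every APP vehicle mouse lay above every WT vehicle mouse, against 4.94% of all genes, and 38 members had an unadjusted p under 0.05, against 14.4% of all genes. The number called rested on single libraries: it was 26 of 44 without the library labelled APP JQ1 replicate 4, which enters this comparison only through the shared estimate of the spread (background 3.32% higher), 9 without WT vehicle replicate 4 (background 1.37%) and 16 without both (background 2.68%). The edgeR count also fell to 8 without APP vehicle replicate 3 (background 1.88%), to 4 without WT vehicle replicate 1 (0.883%) or replicate 3 (1.04%) and to 5 without WT vehicle replicate 5 (1.2%). DESeq2 called 27 higher, where it called 2.5% of its genes higher. Its genes are the 27729 that it gave a p-value, a wider set than the 16962 of edgeR, so the shares of the 2 tools are not alike. The 15 called all stayed called without the library labelled APP JQ1 replicate 4, and the 11 added were Ddx58, Stat2, Irf9, Herc6, Oasl2, Rsad2, Mx2, Gbp2, Ifi27l2a, Ifi35 and Sp100. Irf7, Irf8 and Ifi44 were called in each of the 16 fits that left out a library. The map of all members by mouse shows the direction in each animal.

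**Figure D1:**
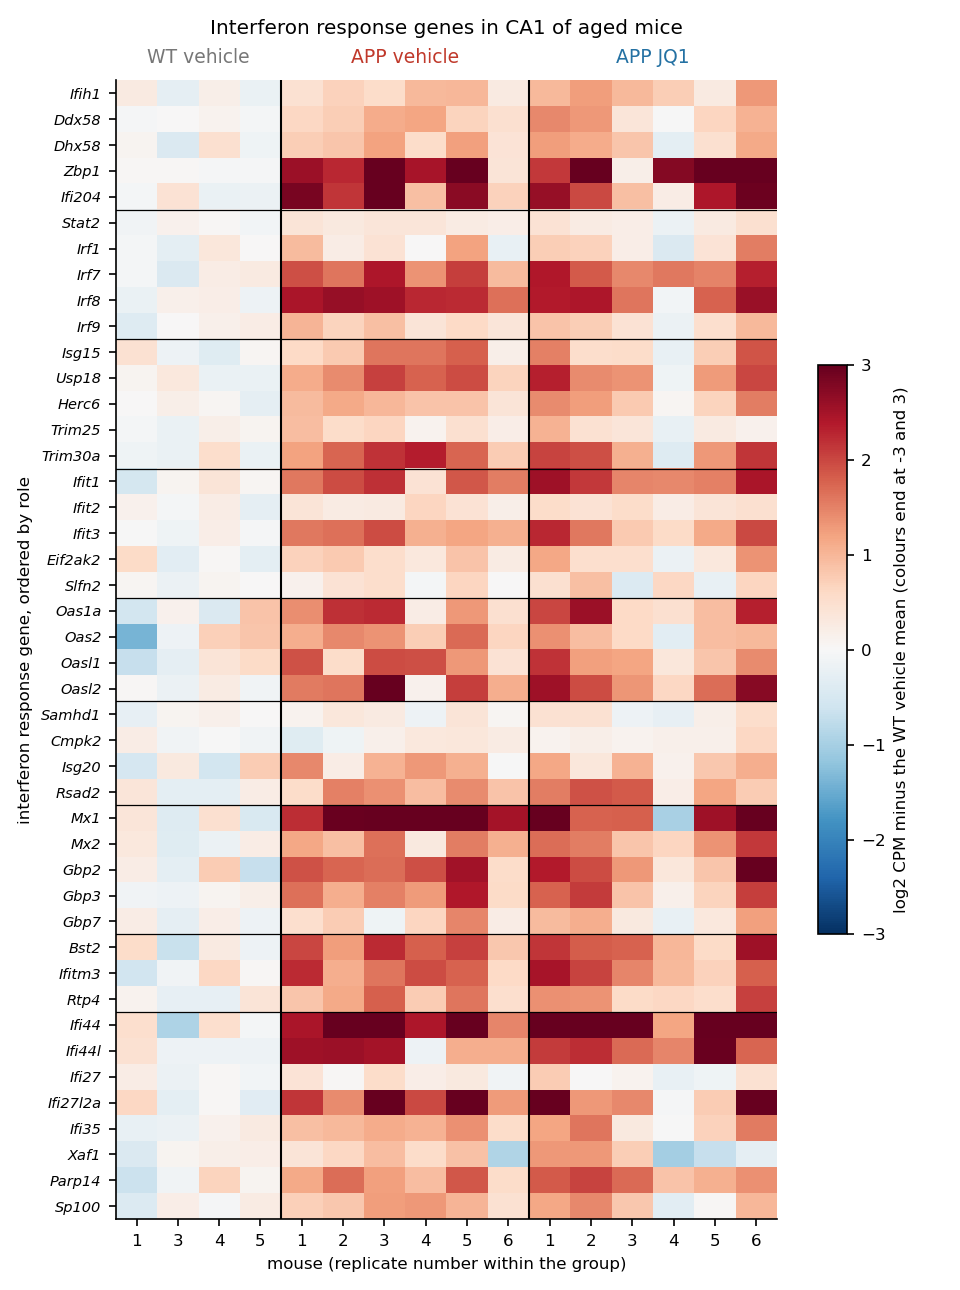
Each row is 1 of the 44 interferon response genes, grouped by role with lines between the groups, and each column is 1 aged mouse, with colour for log2 CPM minus the mean of the 4 WT vehicle mice. Red fills most of the 6 APP vehicle columns and 5 of the 6 APP JQ1 columns, whereas the column of the library labelled APP JQ1 replicate 4 is pale, with a member median of 0.14.

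The APP mice differed among themselves. The median over the 44 members of the log2 difference from the WT vehicle mean was 0.49, in replicate 6, to 1.44, in replicate 3, across the APP vehicle mice, and the same median over all genes tested stayed at or under 0.02 in each of them. APP vehicle replicate 6 was the lowest of its group in 31 of the 44 members. In the APP JQ1 group the medians were 1.52, 1.38, 0.82, 0.72 and 1.55 in replicates 1, 2, 3, 5 and 6, and 0.14 in the library labelled replicate 4, which was the lowest of its group in 36 members. The 4 WT vehicle mice lay between -0.16 and 0.16.

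Among the transcription factors, Irf7 and Irf8 rose and Stat2, Irf1 and Irf9 did not pass the test. Irf7, the factor that amplifies type I interferon production, stood at 1.29, 0.98, 1.60 and 1.65 CPM in the WT vehicle mice and at 2.72 to 7.71 CPM (median 4.87) in the APP vehicle mice. Every APP vehicle mouse was above every WT mouse, the log2 fold change was 1.84 ± 0.31 (SE), and the adjusted p from edgeR was 0.00828. In the APP JQ1 mice Irf7 ran from 3.86 to 7.62 CPM (median 4.67), again above all WT mice, and the library labelled APP JQ1 replicate 4 held 4.27 CPM, well inside its group. Irf8, a factor of the myeloid lineage that microglia express constitutively, was at 4.53, 5.82, 6.03 and 4.65 CPM in WT vehicle and at 16.7 to 32.2 CPM (median 26.9) in APP vehicle mice, a log2 fold change of 2.33 ± 0.38 with an adjusted p of 0.00828 in edgeR. For Irf8 the library labelled APP JQ1 replicate 4 was at the WT level, 4.93 CPM, and the whole APP JQ1 group had a median of 22.9 CPM and a highest value of 31.9 CPM. Without that library the adjusted p of Irf8 between APP vehicle and WT vehicle was 1.0e-05 in edgeR.

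Stat2, the STAT protein specific to interferon signalling, was at 42.1, 49.7, 46.8 and 43.1 CPM in WT vehicle mice and at 52.2 to 59.7 CPM (median 56.8) in APP vehicle mice. The groups did not overlap, but the difference was small, 0.31 ± 0.10 on the log2 scale, and did not pass the threshold (edgeR adjusted p = 0.145; 0.0477 without the library labelled APP JQ1 replicate 4). Irf9, the DNA-binding partner of Stat2, was at 12.9, 17.0, 19.0 and 19.7 CPM in WT vehicle and at 21.8 to 34.3 CPM (median 26.4) in APP vehicle mice, without overlap, at an adjusted p of 0.0854 in edgeR, or 0.023 without that library. Irf1, a factor that interferon gamma induces, overlapped between the groups, with 7.52, 6.36, 9.95 and 7.90 CPM in WT vehicle and 6.73 to 18.2 CPM (median 9.87) in APP vehicle mice, and its adjusted p in edgeR was 0.503.

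Of the 5 sensors of viral nucleic acid, Zbp1 and Ifi204 were called. Zbp1, which binds left-handed double-stranded nucleic acid, was near absent from wild-type tissue, with 1 read in each WT vehicle library (0.042 to 0.050 CPM), and ran from 0.089 to 2.06 CPM (median 0.726) in APP vehicle mice. Over the groups it had 143 reads against 4, a ratio of rates of 23.8 with a 95% interval of 9.09 to 88.5 from counting alone, and its adjusted p in edgeR was 0.0203. In the APP JQ1 mice Zbp1 ran from 0.063 to 2.85 CPM (median 1.02), with 0.866 CPM in the library labelled APP JQ1 replicate 4, and the lowest value was in replicate 3. Ifi204, a DNA-binding protein of the pyrin and HIN domain family whose close paralogs share sequence, was at 0.149, 0.244, 0.127 and 0.127 CPM in WT vehicle and at 0.312 to 2.74 CPM (median 1.31) in APP vehicle mice, a log2 fold change of 2.97 ± 0.70 (adjusted p in edgeR = 0.0266). Reads that map to several places were not counted, so Ifi204 and other members of such families are uncertain.

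The cytosolic RNA helicases were not called between APP vehicle and WT vehicle mice. Ddx58, which encodes RIG-I, did not overlap between WT vehicle (4.23, 4.40, 4.68 and 4.18 CPM) and APP vehicle mice (6.15 to 10.1 CPM, median 7.15), and its adjusted p in edgeR was 0.0871, or 0.0318 without the library labelled APP JQ1 replicate 4. Ifih1, which encodes the helicase MDA5 and carries its match 33 bases after the start, was at 3.79, 2.54, 3.54 and 2.70 CPM in WT vehicle, 3.74 to 6.27 CPM (median 4.84) in APP vehicle and 3.73 to 7.81 CPM (median 6.15) in APP JQ1 mice, and it was called only between APP JQ1 and WT vehicle (log2 fold change 0.96 ± 0.22, edgeR adjusted p = 0.0294, or 0.0187 without that library). Dhx58, the regulatory helicase LGP2, ranged from 1.08 to 2.11 CPM in WT vehicle and from 2.0 to 3.64 CPM in APP vehicle mice and did not pass the test.

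Among the genes of the ISG15 system and the ubiquitin ligases, Usp18 and Trim30a rose and Isg15 itself did not pass the test. Usp18, the protease that removes ISG15 from proteins and dampens the receptor, was at 0.946, 1.12, 0.759 and 0.760 CPM in WT vehicle and at 1.47 to 3.95 CPM (median 2.88) in APP vehicle mice, a log2 fold change of 1.65 ± 0.40 (adjusted p in edgeR = 0.0319). Trim30a, a ubiquitin ligase of the tripartite motif family, was at 1.69, 1.61, 2.74 and 1.60 CPM in WT vehicle and at 3.21 to 9.97 CPM (median 6.49) in APP vehicle mice, a log2 fold change of 1.77 ± 0.42 (adjusted p in edgeR = 0.0278). Isg15, the ubiquitin-like modifier, ran from 1.14 to 2.09 CPM in WT vehicle and from 1.69 to 5.39 CPM in APP vehicle mice, so the groups touched, and its adjusted p was 0.142 in edgeR. Herc6, the mouse ligase that attaches ISG15, was at 5.63, 6.36, 5.82 and 4.65 CPM in WT vehicle and 7.26 to 12.5 CPM (median 10.6) in APP vehicle mice, without overlap (adjusted p in edgeR = 0.0508, or 0.0101 without the library labelled APP JQ1 replicate 4), and it was called between APP JQ1 and WT vehicle mice (log2 fold change 1.04 ± 0.24, adjusted p = 0.0266 in edgeR, or 0.00117 without it). Trim25, which activates RIG-I, had a log2 fold change of 0.51 ± 0.21 and was not called.

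Among the RNA-binding effectors, Ifit1 and Ifit3 rose and their neighbour Ifit2 was not called. The 3 genes lie within chr19:34550694-34650009 (GRCm38), in the order Ifit2, Ifit3 and Ifit1. Ifit1, which binds viral RNA lacking the cellular cap methylation, was at 0.647, 1.03, 1.31 and 1.01 CPM in WT vehicle and at 1.35 to 4.81 CPM (median 3.43) in APP vehicle mice, a log2 fold change of 1.74 ± 0.35 (adjusted p in edgeR = 0.01). In APP JQ1 mice it was at 2.80 to 6.09 CPM (median 3.75), with the library labelled APP JQ1 replicate 4 the lowest and still above every WT mouse. Ifit3, its partner in the complex, was at 3.04, 2.79, 3.54 and 3.00 CPM in WT vehicle and at 6.52 to 12.2 CPM (median 8.23) in APP vehicle mice, a log2 fold change of 1.47 ± 0.30 (adjusted p in edgeR = 0.0107), and it shares sequence with a neighbouring copy. Ifit2 was higher at baseline, at 7.05 to 9.95 CPM in WT vehicle, and its log2 fold change was 0.36 ± 0.13 (adjusted p in edgeR = 0.192). Eif2ak2, the RNA-activated kinase PKR, and Slfn2 had log2 fold changes of 0.55 and 0.31 and were not called.

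None of the 4 oligoadenylate synthetases and their relatives was called between APP vehicle and WT vehicle mice in the fit of all libraries, and Oasl2 was called without the library labelled APP JQ1 replicate 4. Oasl2 was at 2.14, 1.86, 2.49 and 1.94 CPM in WT vehicle and at 2.32 to 17.5 CPM (median 6.47) in APP vehicle mice. That wide range touched the WT values, and the adjusted p of Oasl2 in edgeR was 0.0523, or 0.0284 without that library. In APP JQ1 mice Oasl2 ran from 3.27 to 14.4 CPM (median 7.67), above all WT mice, with a log2 fold change of 2.01 ± 0.49 and an adjusted p of 0.0436 in edgeR (0.0122 without that library). Oasl1, Oas1a and Oas2 had log2 fold changes of 1.81, 1.63 and 1.03 between APP vehicle and WT vehicle mice, with WT means of at most 1.12 CPM, and Oas1a belongs to a family of near copies.

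None of the 4 nucleotide and nuclease effectors was called between APP vehicle and WT vehicle mice in the fit of all libraries, and Rsad2 was called without the library labelled APP JQ1 replicate 4. The neighbours Rsad2 and Cmpk2 lie head to head on chr12, Rsad2 at chr12:26442746-26456452 and Cmpk2 at chr12:26469204-26479837 (GRCm38). Rsad2, which encodes viperin, an enzyme that makes a chain-terminating nucleotide, was at 0.996, 0.587, 0.590 and 0.887 CPM in WT vehicle and at 1.15 to 2.33 CPM (median 1.79) in APP vehicle mice, without overlap (adjusted p in edgeR = 0.0868, or 0.0409 without that library). It was called between APP JQ1 (0.866 to 3.09 CPM, median 2.08) and WT vehicle mice, with a log2 fold change of 1.43 ± 0.36 and an adjusted p of 0.0434 in edgeR (0.0073 without that library). Cmpk2, the mitochondrial nucleotide kinase that supplies its substrate, was at 16.5 to 20.8 CPM in WT vehicle and 13.8 to 22.6 CPM in APP vehicle mice, a log2 fold change of 0.11 ± 0.14, the smallest of the 44 in that comparison. Samhd1, which degrades deoxynucleotides, and the exonuclease Isg20 had log2 fold changes of 0.17 and 0.92 and were not called.

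Of the large GTPases, Mx1 and Gbp3 rose. Mx1, an antiviral GTPase whose allele is defective in most inbred mouse strains, was at 0.149, 0.049, 0.169 and 0.042 CPM in WT vehicle, 9 reads in all, and at 0.795 to 2.97 CPM (median 1.45) in APP vehicle mice, with 214 reads, a ratio of rates of 15.8 with a 95% counting interval of 8.18 to 35.1 (adjusted p in edgeR = 0.0161). In the APP JQ1 group Mx1 ran from 0 to 2.54 CPM (median 0.791), and the value of 0 was in the library labelled APP JQ1 replicate 4, which allows up to 0.199 CPM. Gbp3, a guanylate-binding protein that interferon gamma induces strongly, was at 2.74, 2.64, 3.12 and 3.34 CPM in WT vehicle and at 4.46 to 16.1 CPM (median 7.92) in APP vehicle mice, a log2 fold change of 1.55 ± 0.39 (adjusted p in edgeR = 0.0436). Gbp2 and Gbp7, beside it on chr3 and partly alike in sequence, had log2 fold changes of 1.77 and 0.66 and adjusted p of 0.0854 and 0.321 in edgeR, with 0.0419 for Gbp2 without the library labelled APP JQ1 replicate 4. Mx2, annotated as a polymorphic pseudogene, was at 0.996, 0.587, 0.675 and 0.929 CPM in WT vehicle, 0.970 to 2.66 CPM (median 1.80) in APP vehicle and 1.27 to 3.71 CPM (median 2.28) in APP JQ1 mice, and it was called between the last group and WT vehicle (log2 fold change 1.51 ± 0.35, edgeR adjusted p = 0.0272, or 0.00769 without that library), and without that library also between APP vehicle and WT vehicle (adjusted p in edgeR = 0.0465 against 0.069 with it).

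The membrane effectors Bst2 and Ifitm3 rose. Bst2, tetherin, which holds budding virions at the cell surface, was at 3.09, 1.27, 2.53 and 1.86 CPM in WT vehicle and at 3.70 to 10.2 CPM (median 8.02) in APP vehicle mice, a log2 fold change of 1.74 ± 0.38 (adjusted p in edgeR = 0.0168). In the APP JQ1 mice Bst2 ran from 3.14 to 12.6 CPM (median 7.45). Ifitm3, which blocks fusion of virions with endosomes, was at 3.98, 5.53, 9.28 and 6.12 CPM in WT vehicle, with the highest in the library holding choroid plexus transcripts, and at 9.04 to 28.7 CPM (median 19.4) in APP vehicle mice. The groups touched at 1 mouse, and the log2 fold change was 1.59 ± 0.37 (adjusted p in edgeR = 0.0316). Rtp4, a chaperone of receptors, was at 1.84, 1.42, 1.43 and 2.28 CPM in WT vehicle and at 2.45 to 6.14 CPM (median 3.5) in APP vehicle mice, without overlap, with an adjusted p of 0.075 in edgeR.

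Among the other interferon-induced genes, Ifi44, Ifi44l and Parp14 rose. Ifi44, a cytoplasmic protein of unclear function, was at 0.299, 0.049, 0.295 and 0.169 CPM in WT vehicle and at 0.668 to 4.38 CPM (median 2.24) in APP vehicle mice, a log2 fold change of 3.51 ± 0.68 (adjusted p in edgeR = 0.00981). In the APP JQ1 group Ifi44 ran from 0.533 to 5.89 CPM (median 3.92), with the library labelled APP JQ1 replicate 4 the lowest. Its neighbour Ifi44l had 1 read in all 4 WT vehicle libraries together and 42 in the APP vehicle libraries, a ratio of rates of 27.9 with a 95% counting interval of 4.75 to 1130, and 1 APP vehicle mouse also had none (adjusted p in edgeR = 0.0413). Parp14, which attaches ADP-ribose to proteins, was at 1.34, 2.0, 3.46 and 2.28 CPM in WT vehicle and at 3.21 to 8.03 CPM (median 5.01) in APP vehicle mice, with 1 WT mouse above the lowest of them, a log2 fold change of 1.25 ± 0.31 (adjusted p in edgeR = 0.0359).

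Ifi27l2a, Ifi35 and Sp100 separated without overlap, and were called without the library labelled APP JQ1 replicate 4 but not in the fit of all libraries. Each was also called in 2 of the alternatives that did not leave out a single library. Ifi27l2a, a small membrane protein, was at 0.996, 0.489, 0.632 and 0.465 CPM in WT vehicle and at 1.65 to 6.34 CPM (median 2.92) in APP vehicle mice, a log2 fold change of 2.46 ± 0.72 (adjusted p in edgeR = 0.0916, or 0.0444 without that library). Ifi35 was at 2.19, 2.25, 2.78 and 3.08 CPM against 3.79 to 6.80 CPM (median 5.21), with an adjusted p of 0.0735 in edgeR (0.0286 without it). Sp100, a component of nuclear bodies, was at 2.44, 3.77, 3.16 and 3.89 CPM against 4.54 to 8.14 CPM (median 6.25), with an adjusted p of 0.112 in edgeR (0.0435 without it). Ifi27, the most abundant member, was at 76.7, 57.5, 66.5 and 61.7 CPM in WT vehicle and 60.8 to 95.7 CPM (median 77.1) in APP vehicle mice, and the apoptosis-linked Xaf1 ran from 8.82 to 13.7 CPM against 6.33 to 22.7 CPM; neither was called.

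**Figure D2:**
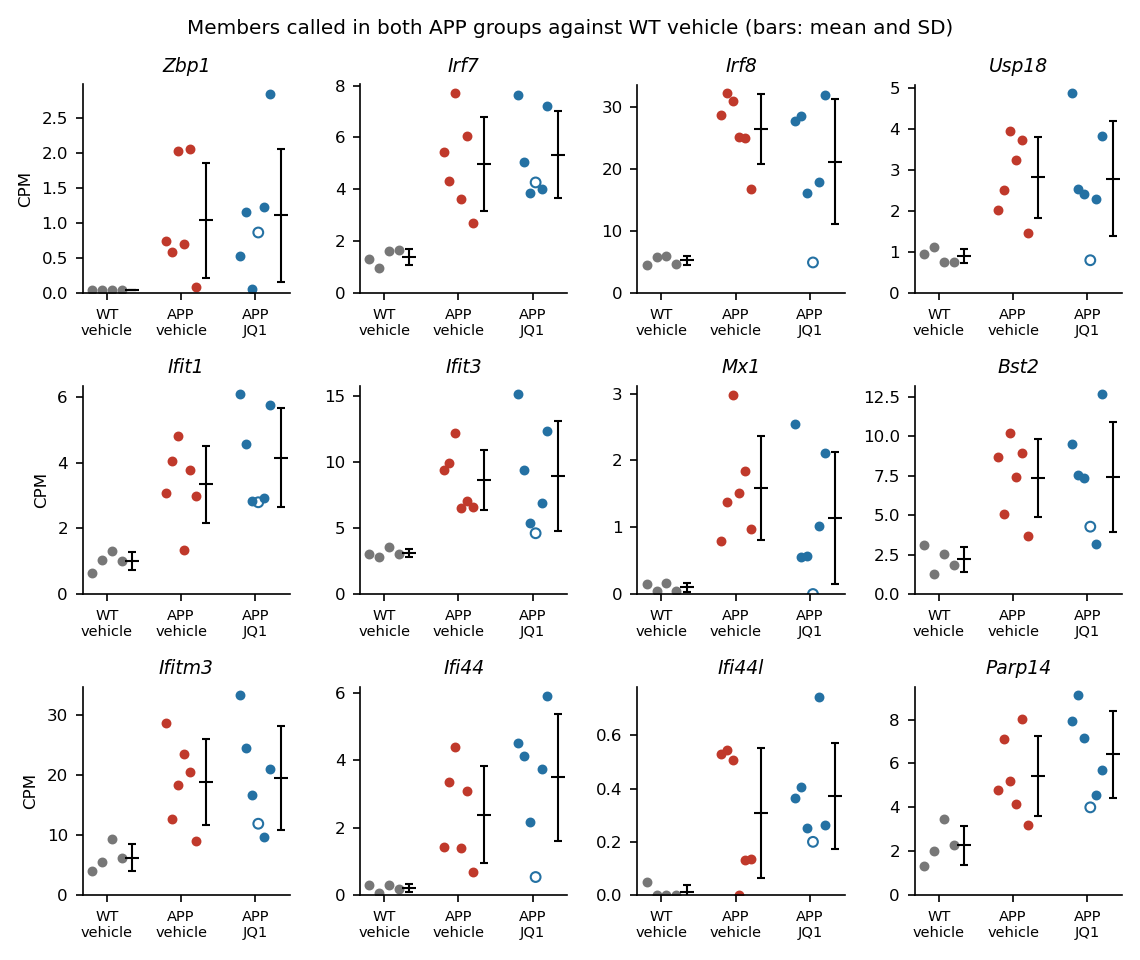
CPM on a linear axis from 0 in each aged mouse for the 12 members called in both APP groups against WT vehicle, with 1 point per mouse, an open circle for the library labelled APP JQ1 replicate 4, and black bars for the mean and SD of each group. The open circle lies at the WT level for Irf8, Usp18 and Mx1 and inside the range of the other APP mice for Zbp1 and Irf7.

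Levels per length put the members in order within the aged mice. By mean CPM per kilobase of exonic length in WT vehicle mice, Ifi27 (44.7), Ifitm3 (9.19) and Stat2 (7.66) were the highest, and Ifi44l (0.009), Zbp1 (0.013) and Mx1 (0.027) the lowest. In APP vehicle mice Ifi27 (52.7), Ifitm3 (27.7) and Stat2 (9.51) were still the highest, with Bst2 (8.12) and Ifi27l2a (7.66) after them, and Oasl1 (0.216), Ifi44l (0.224) and Zbp1 (0.294) the lowest. The members with the largest log2 fold changes were among those scarcest in wild-type tissue, so their values rest on few reads.

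JQ1 against vehicle in the APP mice asked whether JQ1 injections changed these levels, and no member was called. Whether BET proteins were inhibited in this tissue at the time of sampling was not tested here. None of the 44 passed the threshold, where 1.08% of all genes did, none had an unadjusted p under 0.05 (17.6% of all genes did), and DESeq2 called none either, where it called 2.7% of its genes. The count was also 0 without the library labelled APP JQ1 replicate 4 (background 0.431%), without WT vehicle replicate 4 (0.666%) and without both (0.331%). The median log2 fold change of the members was 0.04, with 26 positive and 18 negative, where 49.83% of all genes tested were positive. It was 0.15 without the library labelled APP JQ1 replicate 4, with 36 positive and 8 negative. The share of all genes that were positive was not counted without that library. In no member did the 6 APP JQ1 mice lie all above or all below the 6 APP vehicle mice, whether or not that library was included; of all genes 0.878% lay all above and 1.15% all below with it, and 0.99% and 1.24% without it.

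The intervals show how large a difference the data leave room for. In 34 of the 44 members the 95% interval of the log2 fold change lay within -1 to 1, within a doubling or a halving. The share of all genes tested was 81.85%. Without the library labelled APP JQ1 replicate 4 the interval lay within these limits in 33 members. For Irf7 the log2 fold change between APP JQ1 and APP vehicle was 0.10 (95% interval -0.42 to 0.63), for Stat2 -0.06 (-0.25 to 0.14), for Isg15 -0.23 (-0.95 to 0.50) and for Ifit3 0.06 (-0.47 to 0.59). For Irf8 it was -0.32 (-0.97 to 0.33), and -0.11 (-0.50 to 0.28) without that library. The 3 widest intervals belonged to the scarce members Zbp1, at 0.08 (-1.20 to 1.36), Ifi44l and Mx1, at -0.47 (-1.67 to 0.74). Ifi44 had the largest positive value, 0.55 (-0.46 to 1.56), and 0.78 (-0.08 to 1.63) without that library, at an unadjusted p of 0.0738 in edgeR.

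**Figure D3:**
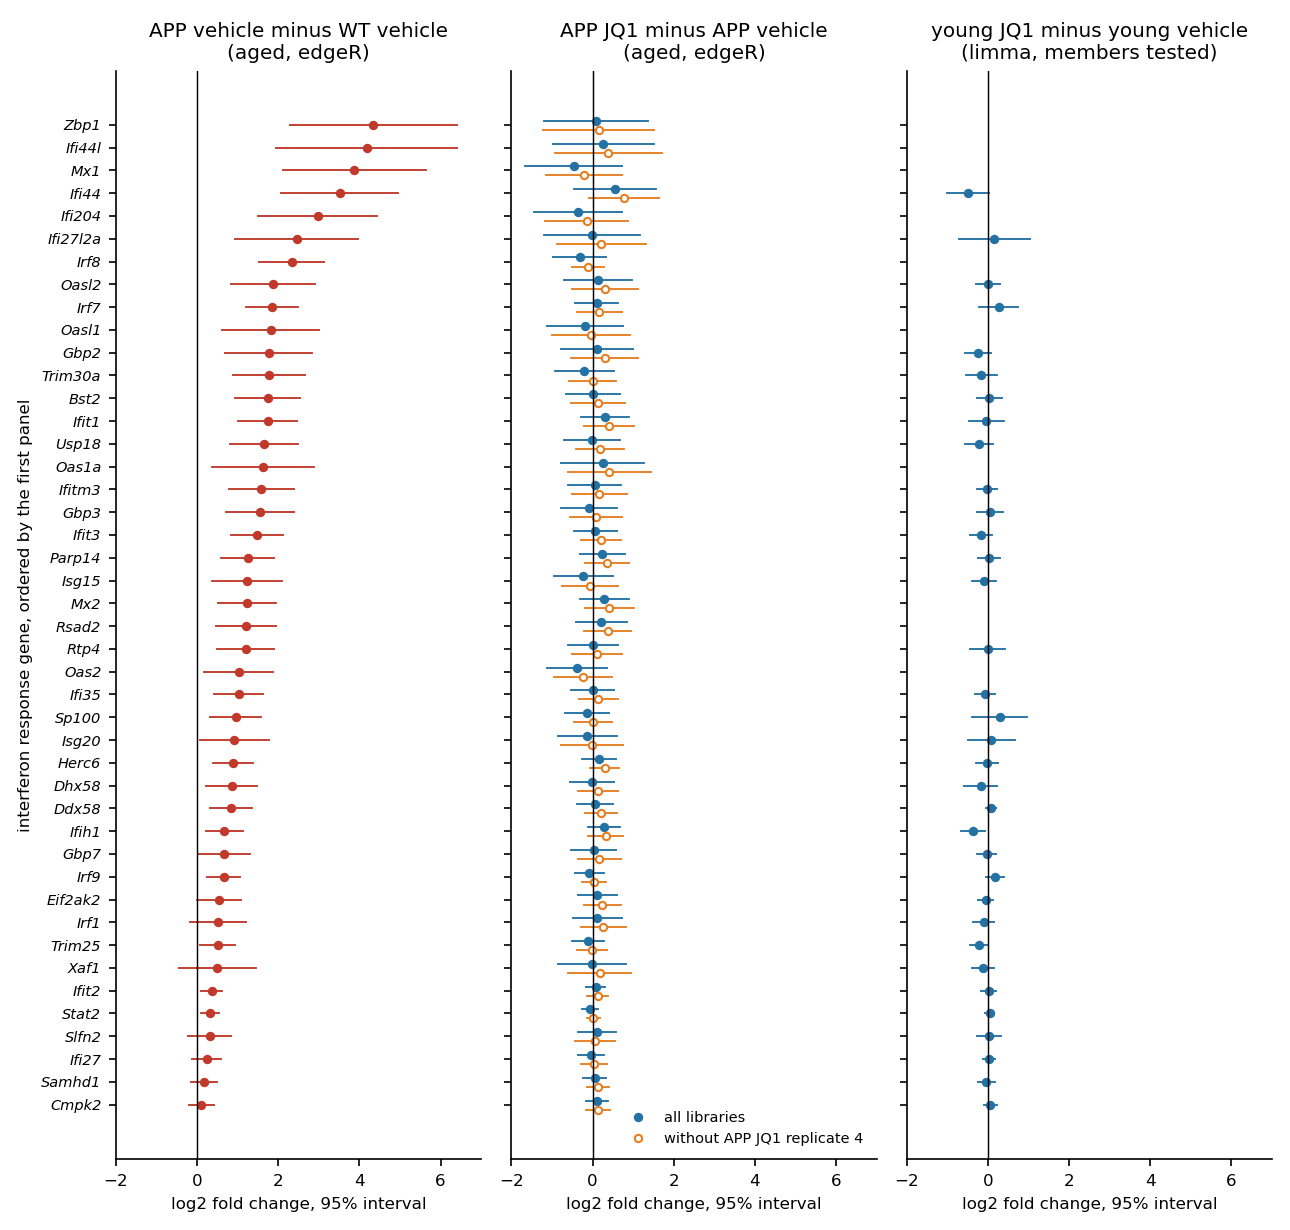
Points are log2 fold changes and lines their 95% intervals for each member, between APP vehicle and WT vehicle (left), APP JQ1 and APP vehicle (middle, with orange open points for the fit without the library labelled APP JQ1 replicate 4) and young JQ1 and young vehicle (right, 34 members tested). All 44 points lie above 0 in the left panel, from 0.11 to 4.35, whereas those of the middle panel lie between -0.47 and 0.55.

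Against the same 4 WT vehicle mice, the APP JQ1 mice were also higher in these genes. All 44 log2 fold changes were positive, where 50.15% of all genes were, and their median was 1.32. Of the members 17 were called, all higher, where 1.93% of all genes were called higher. Without the library labelled APP JQ1 replicate 4 the count was 29 of 44 (background 3.6%) and the median 1.43, without WT vehicle replicate 4 it was 4 (background 0.151%), and without both 22 (background 2.72%), while DESeq2 called 27 (2.47% of its genes). At an unadjusted p under 0.05 there were 35, against 14.1% of all genes. The number called by edgeR was 1 without WT vehicle replicate 3 (background 0.138%) or replicate 5 (0.0637%), 5 without replicate 1 (0.629%), and 8, 7 and 10 without APP JQ1 replicates 1, 2 and 6 (1.08%, 1.03% and 1.27%). The 17 called all stayed called without the library labelled APP JQ1 replicate 4. Of the members, 13 had every APP JQ1 mouse above every WT vehicle mouse (2.55% of all genes), and 31 did without that library (5.87% of all genes). Of the called members, 12 were called in both APP groups, which share their WT controls: Zbp1, Irf7, Irf8, Usp18, Ifit1, Ifit3, Mx1, Bst2, Ifitm3, Ifi44, Ifi44l and Parp14. The genes called higher in both were not counted over all genes, where they can be at most 1.93%, the share called higher here. Irf7, with a log2 fold change of 1.94 ± 0.31 (adjusted p in edgeR = 0.00693), was the one called in all 16 fits that left out a library.

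Other genes of the pathway were read from a second list of 73 genes with a row in the count tables, 62 of which were tested. Between APP vehicle and WT vehicle mice 10 of the 62 were called, all higher, against 2.49% of all genes (13 without the library labelled APP JQ1 replicate 4, against 3.32%, and 4 without WT vehicle replicate 4, against 1.37%), with a median log2 fold change of 0.52. The 8 ligands listed, Ifnb1, Ifna1, Ifna2, Ifna4, Ifna5, Ifne, Ifnk and Ifng, were too scarce to test, with group means of at most 0.0743 CPM; the highest single value was Ifna2 at 0.406 CPM, 8 reads, in APP JQ1 replicate 2, and every other value was at most 0.101 CPM. None of the 6 receptor genes was called. Ifnar1 was at 56.1 to 64.4 CPM in WT vehicle and 60.4 to 76.4 CPM in APP vehicle mice (adjusted p in edgeR = 0.4929), and Ifnar2 at 13.99 to 18.3 CPM and 18.2 to 26.8 CPM (adjusted p in edgeR = 0.105). Stat3, which interleukin 6 activates, rose with a log2 fold change of 0.995 ± 0.22 (adjusted p in edgeR = 0.0224).

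The other 9 called genes of that list fall upstream of interferon, among its negative regulators and among its targets. Irf5 and Tlr7, which act in sensing of endosomal RNA, rose by log2 fold changes of 1.54 ± 0.27 (adjusted p in edgeR = 0.00828) and 1.57 ± 0.35 (adjusted p = 0.0197), and Ikbke, a kinase of the interferon regulatory factors, by 1.28 ± 0.29 (adjusted p = 0.0195). Ptpn6, a phosphatase that restrains cytokine receptors in blood cells, went from 4.23 to 4.65 CPM in WT vehicle to 11.1 to 22.03 CPM in APP vehicle mice, a log2 fold change of 2.05 ± 0.38 (adjusted p in edgeR = 0.00922). Of the other interferon-induced genes, Cxcl10, a chemokine for T cells, went from 0.169 to 0.422 CPM to 0.891 to 4.73 CPM, a log2 fold change of 3.44 ± 0.83 (adjusted p in edgeR = 0.0358). Nlrc5, the activator of MHC class I genes, and the secreted Lgals3bp had log2 fold changes of 2.20 ± 0.51 and 1.86 ± 0.42 (adjusted p = 0.0266 and 0.0269 in edgeR), and Parp9 and Tor3a of 1.07 ± 0.22 and 0.77 ± 0.17 (adjusted p = 0.0103 and 0.0194 in edgeR). None of the 62 was called between APP JQ1 and APP vehicle mice, where 1.08% of all genes were, and the lowest adjusted p in edgeR was 0.0584. In 1 of the 62 every APP JQ1 mouse lay below every APP vehicle mouse, with and without the library labelled APP JQ1 replicate 4. The shares of all genes were 1.15% and 1.24%. Between APP JQ1 and WT vehicle mice 5 were called, all higher, against 1.93% of all genes: Irf5, Tlr7, Ptpn6, Parp9 and Tor3a. Without the library labelled APP JQ1 replicate 4 there were 15, against 3.6%, and without WT vehicle replicate 4 there were 0, against 0.151%.

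Markers of microglia moved with the members. The summed level of 8 microglial markers was 337 to 373 CPM in WT vehicle, 652 to 1163 CPM in APP vehicle and 373 to 1177 CPM in APP JQ1 mice, the lowest of the last group being the library labelled APP JQ1 replicate 4. Of the 8, 5 were called between APP vehicle and WT vehicle mice, all higher, against 2.49% of all genes. Without the library labelled APP JQ1 replicate 4 there were 6, against 3.32%. The 5 included C1qa (log2 fold change 2.51) and Csf1r (1.28) but not P2ry12 (0.26) or Tmem119 (0.46). The 6 markers of microglia around plaques summed to 77.5 to 162 CPM in WT vehicle, 227 to 573 CPM in APP vehicle and 98.2 to 475 CPM in APP JQ1 mice. Between APP vehicle and WT vehicle mice 5 of the 6 were called, all higher, with and without the library labelled APP JQ1 replicate 4. The shares of all genes were 2.49% and 3.32%. Cst7, at a mean of 0.103 CPM in WT vehicle and 36.8 CPM in APP vehicle mice, was one of the 5. Astrocyte markers moved as well, with sums of 1061 to 1092 CPM in WT vehicle, 2071 to 6226 CPM in APP vehicle and 1221 to 5460 CPM in APP JQ1 mice. All 4 had a positive log2 fold change and an unadjusted p under 0.05 in edgeR between APP vehicle and WT vehicle mice (14.4% of all genes had such a p). In 3 every APP vehicle mouse lay above every WT vehicle mouse, against 4.94% of all genes. Gfap was called, and 2 of the 4 were called without the library labelled APP JQ1 replicate 4. Between APP JQ1 and WT vehicle mice 3 of the 4 were called with and without that library, against 1.93% and 3.6% of all genes. None of the 4 markers each of endothelium, oligodendrocytes, perivascular macrophages or mural cells was called in either comparison. The 5 lymphocyte markers summed to at most 2.81 CPM in any aged library, with none of them above 0 in every library. The part of these cells in the members' differences was not tested.

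**Figure D4:**
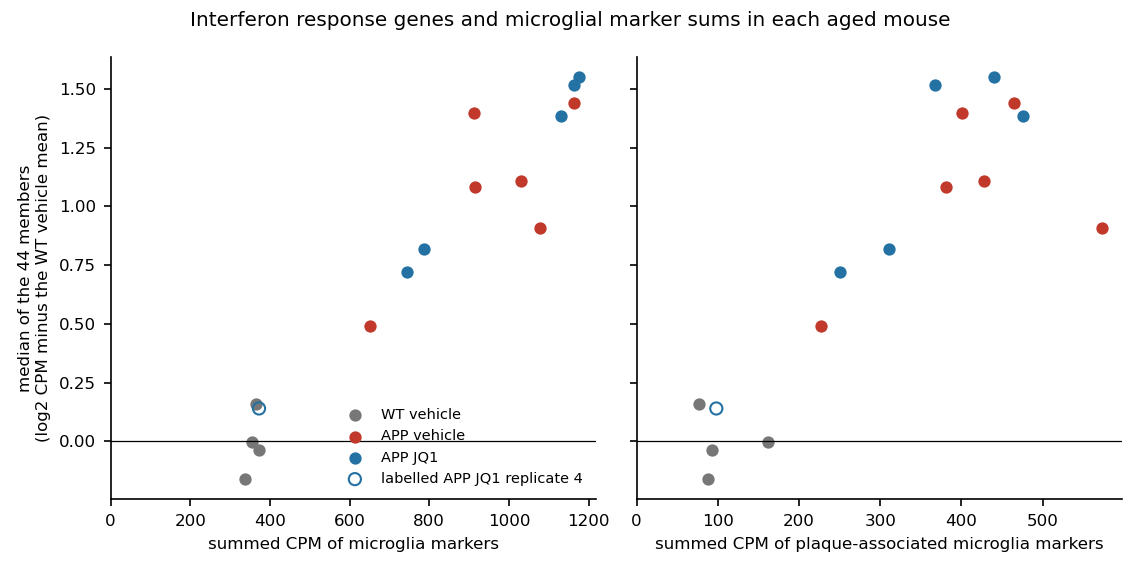
Each point is 1 aged mouse, with the summed CPM of microglial markers (left) or of markers of microglia around plaques (right) on the x axis and the median of the 44 members, as log2 CPM minus the WT vehicle mean, on the y axis. The 4 WT vehicle mice and the library labelled APP JQ1 replicate 4 (open circle) lie at low marker sums with medians from -0.16 to 0.16, and the other 11 APP mice lie higher on both axes, with medians from 0.49 to 1.55.

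In young mice JQ1 was compared with vehicle on FPKM (fragment counts scaled to transcript length and library size), which also allow levels to be compared between genes. Of the 43 members with a locus, 34 reached the minimum for testing (0.5 FPKM in at least 8 of the 16 mice), and Zbp1, Ifi204, Oas1a, Oas2, Oasl1, Rsad2, Mx1, Mx2 and Ifi44l did not. None of the 34 was called (limma on log2(FPKM + 0.1), Benjamini-Hochberg adjusted), where 0.00543% of all 18420 loci were, a single locus. The median log2 fold change of the members was -0.02, with 14 positive and 20 negative, where 51.14% of all loci were positive. No member separated the groups, where 0.0109% of all loci lay all above and 0.0163% all below. The 95% interval lay within -1 to 1 on that log2 scale in 32 of the 34 and within -0.5 to 0.5 in 24. Of all loci tested, 92.32% had an interval within -1 to 1. The pathway list gave the same count, with 0 of 51 loci called and its 8 ligands too scarce to test.

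Ifih1 was the one member with an unadjusted p under 0.05 (0.0207, against 4.65% of all loci). It was at 1.60 to 2.24 FPKM (median 1.76) in vehicle and 1.02 to 2.10 FPKM (median 1.33) in JQ1 mice, a difference of -0.37 ± 0.15 on the log2(FPKM + 0.1) scale that did not pass the adjustment (limma adjusted p = 0.981). Ifi44 ran from 0.325 to 1.28 FPKM (median 0.6) in vehicle and from 0.209 to 0.758 FPKM (median 0.405) in JQ1 mice. Irf7 ran from 1.14 to 2.96 FPKM (median 2.19) in vehicle and from 1.76 to 3.92 FPKM (median 1.95) in JQ1 mice, with wide overlap. Stat2 was steady, at 4.81 to 5.86 FPKM in vehicle and 5.11 to 5.82 FPKM in JQ1 mice.

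The highest members in young vehicle mice were Ifi27 (54.7 to 80.3 FPKM, median 60.7), Irf9 (14.5 to 22.3 FPKM, median 18.6) and Ddx58 (10.2 to 13.8 FPKM, median 12.2), and their JQ1 values overlapped these ranges, at medians of 65.4, 21.6 and 13.0 FPKM. The loci of Irf9 and Ddx58 each join a neighbouring gene in the deposited tables, as do those of Ifit3 and Sp100, so these levels are not of the member alone. At the other end, Ifi44l was listed at 0 in all 16 young mice, Ifi204 ran from 0.0195 to 0.132 FPKM and Mx1 from 0.0144 to 0.173 FPKM in vehicle mice. In the young tissue the microglial markers summed to 153 to 173 FPKM with vehicle and 139 to 178 FPKM with JQ1.

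**Figure D5:**
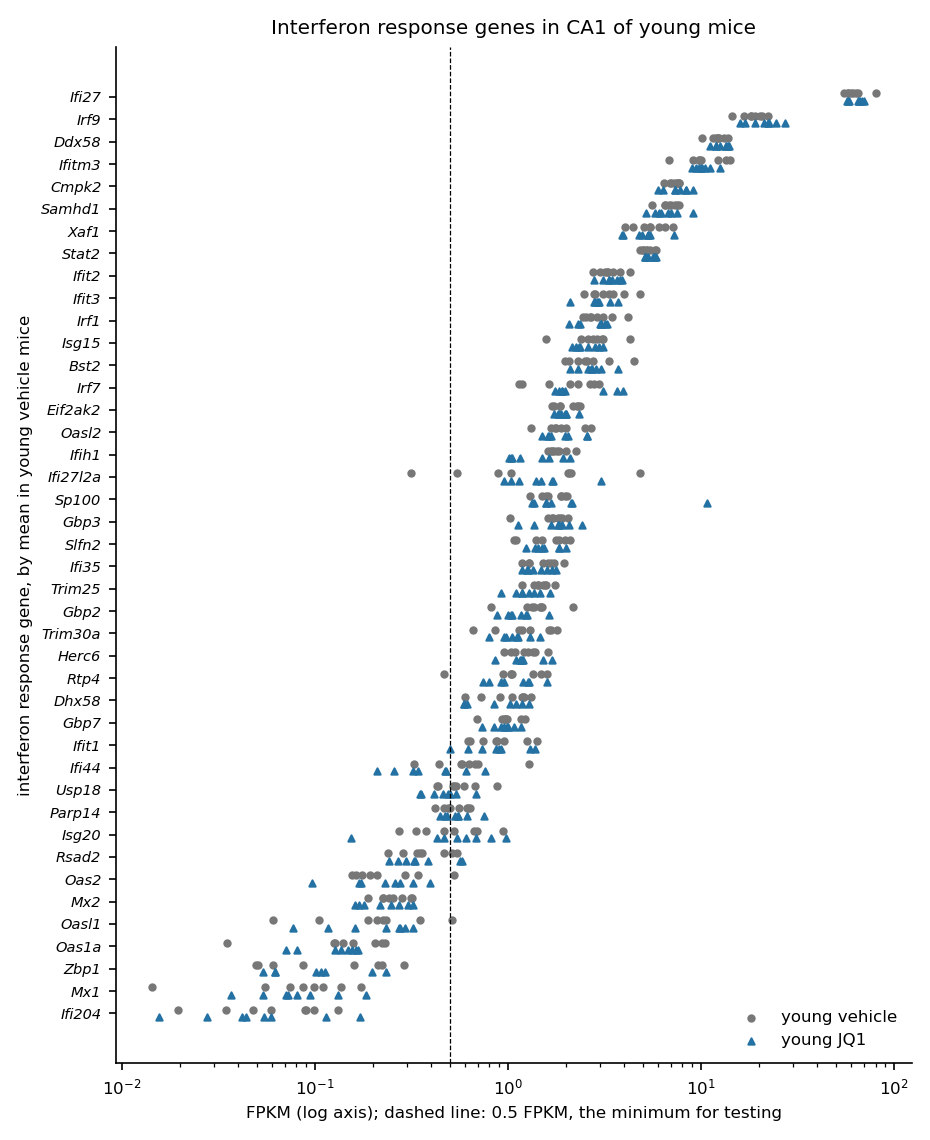
FPKM on a log axis for 42 members with a value above 0 in the young mice, with a grey circle for each of the 8 vehicle mice and a blue triangle for each of the 8 JQ1 mice. The 2 groups overlap in every member shown, and the single triangle far to the right for Sp100 is young JQ1 replicate 8 at 10.7 FPKM.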

How the data were processed

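CA1 RNA from aged and young mice was sequenced on a HiSeq2000. For the aged mice the authors used STAR (mm10, up to 2 mismatches) and deposited htseq counts per gene as whole numbers. For the young mice the authors deposited FPKM from cufflinks/cuffdiff, normalized to length and depth. Counts were scaled with TMM (CPM are on that scale), filtered with filterByExpr and tested in 1 fit of the 3 aged groups with edgeR 4.0.16 (quasi-likelihood, robust); log2(FPKM + 0.1) was tested with limma 3.58.1 (trend, robust) for loci of at least 0.5 FPKM in at least 8 of 16 samples. Both used Benjamini-Hochberg adjustment over all features and a threshold of 0.05. SE and 95% intervals come from these fits, which were checked on simulated data. Exact permutation tests of single members cannot go below p = 0.00952 for 6 mice against 4, 0.00216 for 6 against 6 or 0.000155 for 8 against 8. Where the APP vehicle and WT vehicle mice did not overlap, the first of these is fixed by the non-overlap and adds nothing to it. Coordinates and lengths come from GENCODE vM21 on GRCm38, the build of mm10; htseq's unassigned rows, of which reads outside genes were 15.45% to 26.87% of uniquely mapped reads, were left out. Each library was taken as 1 mouse, and no source says whether tissue was pooled. The p-values set a group difference against the spread between libraries, which in the aged mice was estimated over the 3 groups together. No deposited column of another series was present. The members and lists were chosen with earlier results of these data known. Per-mouse values are given for members called in any comparison, for members whose groups do not overlap, for the STAT and IRF members, and for the 3 highest and 3 lowest in young vehicle mice; pathway genes are named where called. Alternatives were DESeq2 1.42.0 (the tool the authors name), RLE size factors, other filters, only the groups compared, GC content and length offsets, a replicate block, other pseudocounts, rescaling of FPKM, and leaving out each library. Leaving out APP JQ1 replicate 4 and WT vehicle replicate 4 together was added after seeing the data. Values of some listed genes are not reported here.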

Additional observations from a re-analysis of the deposited data

Results flagged for a closer look

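In 9 of 200 combinations of a member and a group, 1 mouse lay far from the others of its group by Dixon's criterion, which chance gives in about 1 of 20. Irf8 was at 4.93 CPM in the library labelled APP JQ1 replicate 4. Xaf1 was at 6.33 CPM in APP vehicle replicate 6, the mouse with the lowest member median of its group. Cmpk2 was high at 27.4 CPM in APP JQ1 replicate 6, and Trim30a at 2.74 CPM in WT vehicle replicate 4, the library with choroid plexus transcripts. Ifi44l at 0.0498 CPM in WT vehicle replicate 1 is a single read. In the young mice, Gbp3 (1.02 FPKM) and Rtp4 (0.465 FPKM) were low in vehicle replicate 8, which was the lowest of its group in 17 of 34 members. Ifi27 was high, at 80.3 FPKM, in young vehicle replicate 7, the highest of its group in 15 members. Sp100 was at 10.7 FPKM in young JQ1 replicate 8, against at most 2.16 FPKM in the other young JQ1 mice, and its locus joins another gene.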

How the results depend on the processing

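Direction was stable against WT vehicle and counts were not. All 44 members kept a positive log2 fold change in every alternative run for APP vehicle and for APP JQ1 against WT vehicle. For APP vehicle the 15 called became 26 with only the 2 groups compared and 27 with DESeq2, and over all genes the 436 called became 679 and 804. For APP JQ1 the 17 became 10 and 27, and the 349 over all genes became 227 and 790. Between APP JQ1 and APP vehicle no alternative called a member, 31 of 44 members changed sign in at least 1 alternative, and the 184 genes called in all became 42 with GC content and length offsets, 749 with DESeq2 and 57 without both doubted libraries. In young mice no alternative called a member, 16 of 34 changed sign in at least 1, and the 1 locus called became 0 without a filter. With each library left out in turn, the members called ran from 4 to 26 for APP vehicle against WT vehicle, from 1 to 29 for APP JQ1 against WT vehicle and stayed at 0 in the other comparisons; the genes called in all ran from 154 to 601, from 11 to 651, from 65 to 446 for JQ1 in APP mice and from 0 to 2 in young mice. The cause of these shifts was not tested.

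Replicate numbers are shared between groups, but deviations from the group means correlated above 0.1 in only 3 of 6 (APP JQ1 and APP vehicle), 1 of 4 (APP JQ1 and WT vehicle), 0 of 4 (APP vehicle and WT vehicle) and 1 of 8 (young) pairs, so the numbers were not taken to pair the mice. With a replicate block, 0 members were called in each comparison, and 35, 87, 21 and 0 genes in all for APP vehicle against WT vehicle, JQ1 in APP mice, APP JQ1 against WT vehicle and young mice. With the block and GC content and length offsets together these were 0, 0 and 1 members and 29, 33 and 36 genes for the aged comparisons. In the same order, in 3, 1, 0 and 2 pairs a mouse correlated best with its own number.

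Scarce members (Ifi44l, Zbp1, Mx1) rest on few reads in WT vehicle, 4 WT mice limit every count against WT, and FPKM give no depth for the young mice.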
